A study of Sus scrofa domesticus with 6 samples.

Results

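The genes described here are those of the swine leukocyte antigen (SLA) complex, which is the pig major histocompatibility complex (MHC), and of the machinery that loads peptides on its products. They were taken by gene symbol alone: every row whose symbol began with SLA-, and the rows of 23 named antigen presentation genes. This gave 39 of the 30352 named rows of the gene table. Of these, 21 belong to the class I pathway, 15 to the class II pathway and 3 (CD1D, CD80 and CD86) to neither. All 39 had enough counts to be tested, and 22 lie on chromosome 7.

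Expression was measured by bulk RNA sequencing of small intestine from 6 wild type Gottingen minipigs aged 6 months, 1 library per animal. The 2 control animals are labelled only as control, and their handling is not described further. The 2 IR animals had their abdomen exposed to 15 Gy of 60Co gamma rays. The 2 IR_Pra animals had the same exposure and took pravastatin, a cholesterol-lowering statin, by mouth at 40 mg per day in 2 daily doses for 2 weeks. Small intestine was collected on day 14. The labels call the drug both PS and Pra, which are taken here as 1 drug.

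Class I molecules are made by nearly all nucleated cells and show peptides from the cytosol to CD8 T cells. The proteasome cuts these peptides, the TAP transporter carries them into the endoplasmic reticulum, ERAP enzymes trim them there, and tapasin helps place them on a heavy chain paired with beta-2-microglobulin. Class II molecules are made mainly by B cells, dendritic cells and macrophages, and show peptides from endosomes to CD4 T cells. Gut epithelium can also make them when it is inflamed. Interferon gamma raises most genes of both pathways, acting on class I through NLRC5 and on class II through CIITA.

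The libraries held 48587645 to 73968471 counts in named rows. The members took between 1.02% and 1.89% of a library's counts, with exact (Clopper-Pearson) 95% intervals at most 0.00686 percentage points wide, which cover counting error only. The member with the fewest counts was CD80, with 122 to 382 per library. The 2 IR libraries differed from each other in their epithelium markers, whose summed level was 9582 CPM in IR 1 and 1948 in IR 2, and in IR 1 values decreased with transcript length (Spearman rho across genes -0.351 against the control mean). Levels of 1 gene across libraries are given in CPM, counts relative to the TMM-scaled library size, and levels of different genes are compared in the deposited FPKM, which is per transcript length.

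In unirradiated tissue the members' levels ran from 0.930 to 1720 FPKM, and 4 of the 5 regulators (NLRC5, RFX5, RFXAP and CIITA) were among the lowest, while RFXANK was at 42.4 ± 1.33 FPKM. The highest mean FPKM was that of B2M (Entrez 397033), at 1720 ± 63.6 FPKM (SD, n = 2). CD74, the invariant chain that guides class II molecules, followed at 1311 ± 532 FPKM, the other B2M gene (Entrez 110255236) at 1116 ± 12.7 FPKM and the heavy chain SLA-1 at 1022 ± 230 FPKM. The order of CD74, B2M 110255236 and SLA-1 was not resolved by the spread of 2 animals. Nor was that of CD74 (1687 and 935 FPKM in the controls) and B2M 397033 (1765 and 1675). The FPKM of B2M 397033 rests on a transcript length of 538 nt, against 1087 nt for B2M 110255236. In counts B2M 397033 was the lower of these 2 genes in both controls (55009 and 55982 against 69738 and 76002). SLA-2 stood at 837 ± 104 FPKM and the class II chain SLA-DRA at 614 ± 127 FPKM. At the low end were the class II transactivator CIITA at 4.94 ± 2.69 FPKM, RFXAP at 5.10 ± 0.154 FPKM and the co-stimulatory ligand CD80 at 0.930 ± 0.359 FPKM. CIITA, RFXAP and CD86 (5.29 ± 1.91 FPKM) could not be ordered among themselves.

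**Figure D1:**
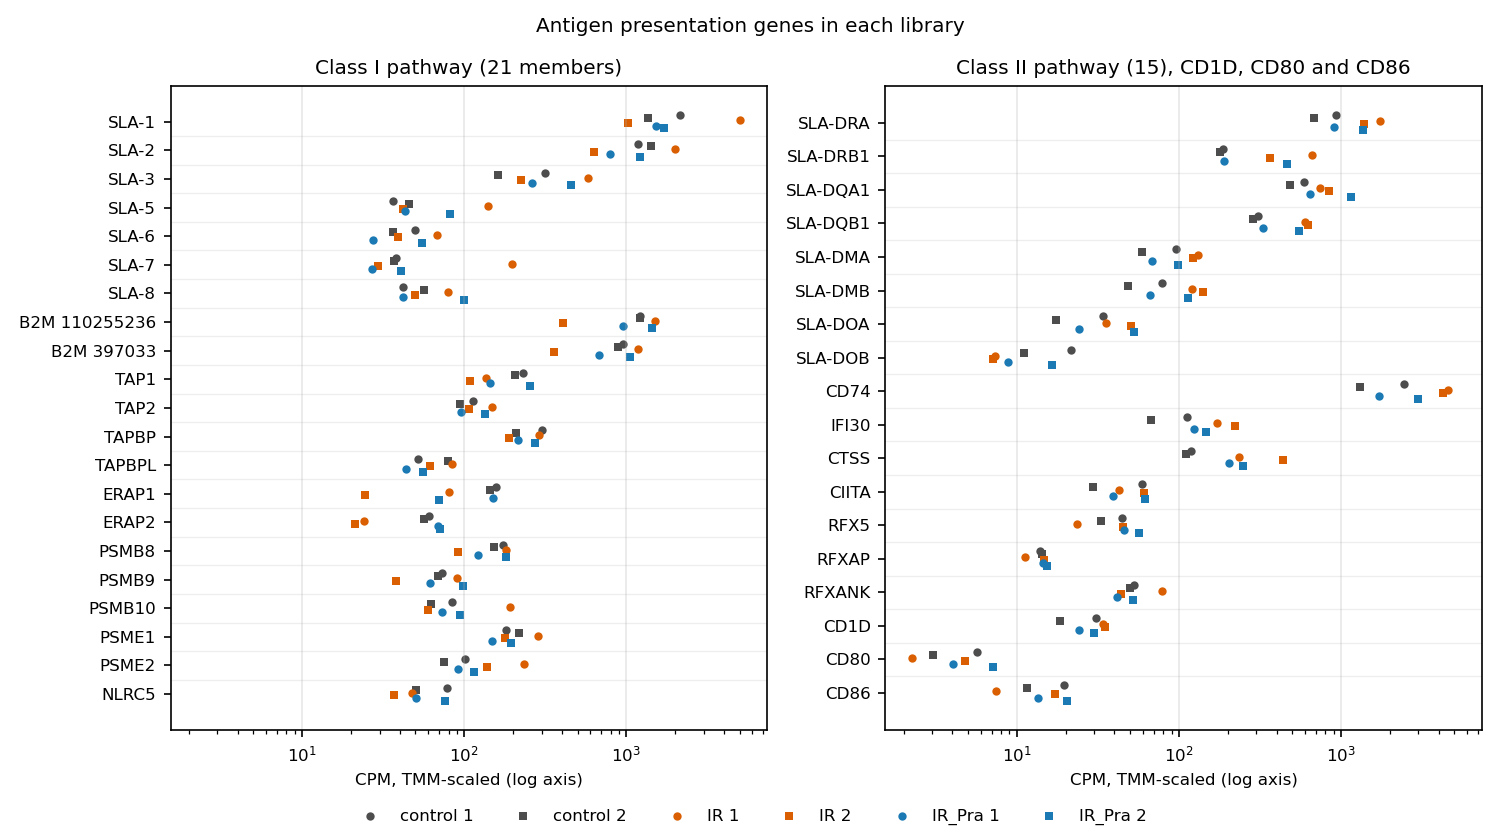
CPM of each member in each library on a log axis, class I pathway at the left and class II pathway with CD1D, CD80 and CD86 at the right; circles are animal 1 and squares animal 2 of a group. IR 1 lies to the right of IR 2 for all 21 class I pathway members, and for ERAP2 both IR libraries lie to the left of the other 4.

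Irradiated and unirradiated tissue were compared first, at day 14 after exposure of the abdomen. Of the 39 members, 1 passed the test (edgeR quasi-likelihood, adjusted p under 0.05 over all 18197 genes tested): the peptide-trimming enzyme ERAP2, which fell. Over all genes tested, 6.06% passed, 3.39% higher and 2.68% lower. Class II genes were on balance higher in IR, with a median log2 fold change of 0.74 over the 15 members against 0.03 over all genes, but none of them passed. At an unadjusted p under 0.05, a share of 30.2% over all genes, there were 5 class II members higher and 1 lower. DESeq2 called 5 higher and none lower, against 12.3% and 10.4% of all genes, and limma voom called none. In 10 of the 15 class II members both IR libraries lay above both controls, and in 1, SLA-DOB, both lay below. For all genes those shares were 29.8% and 30%. The class I pathway had a median of 0.15 over its 21 members, which was -0.44 without IR 1, 0.50 without IR 2 and -0.05 with the length trend removed, with 1 member (PSME2) higher in both IR libraries than in both controls and 4 (TAP1, ERAP1, ERAP2 and NLRC5) lower.

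The comparison of IR_Pra with IR asked what pravastatin changed in irradiated tissue. No member passed there with edgeR, against 0.0055% of all genes tested, which was 1 gene. At an unadjusted p under 0.05, a share of 24.5% over all genes, there was 1 member higher (ERAP2) and 1 lower (PSME2). DESeq2 called ERAP2 alone, higher, against 7.32% of all genes higher and 8.53% lower (15.9% in all), and limma voom called none. In 5 members both IR_Pra libraries lay above both IR libraries and in 9 below, against 27.3% and 26.6% of all genes. The class II median was -0.45 and the class I median -0.15, against -0.02 over all genes. No member passed between IR_Pra and control, nor did any other gene (0%). There 1 member, CTSS, had an unadjusted p under 0.05, as did 3.42% of all genes, and neither DESeq2 nor limma voom called a member. In 8 members the IR_Pra libraries lay above both controls, against 20.8% of all genes, and in none below, against 20%. The comparisons share libraries, so their values are not independent of each other. Leaving out either IR library added calls. In IR against control 28.3% of all genes were called without IR 1 (15.1% higher, 13.1% lower) and 17.5% without IR 2 (8.59% higher, 8.93% lower). Without any one of the other 4 libraries no gene was called by edgeR in IR against control, while between 3038 genes (without control 1) and 4651 genes (without IR_Pra 2) had an unadjusted p under 0.05. In IR_Pra against IR it was 19.7% without IR 1 (9.88% higher, 9.85% lower), with 3 members higher and 1 lower, and 12.4% without IR 2 (6.58% higher, 5.78% lower), with 1 higher and 4 lower.

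**Figure D2:**
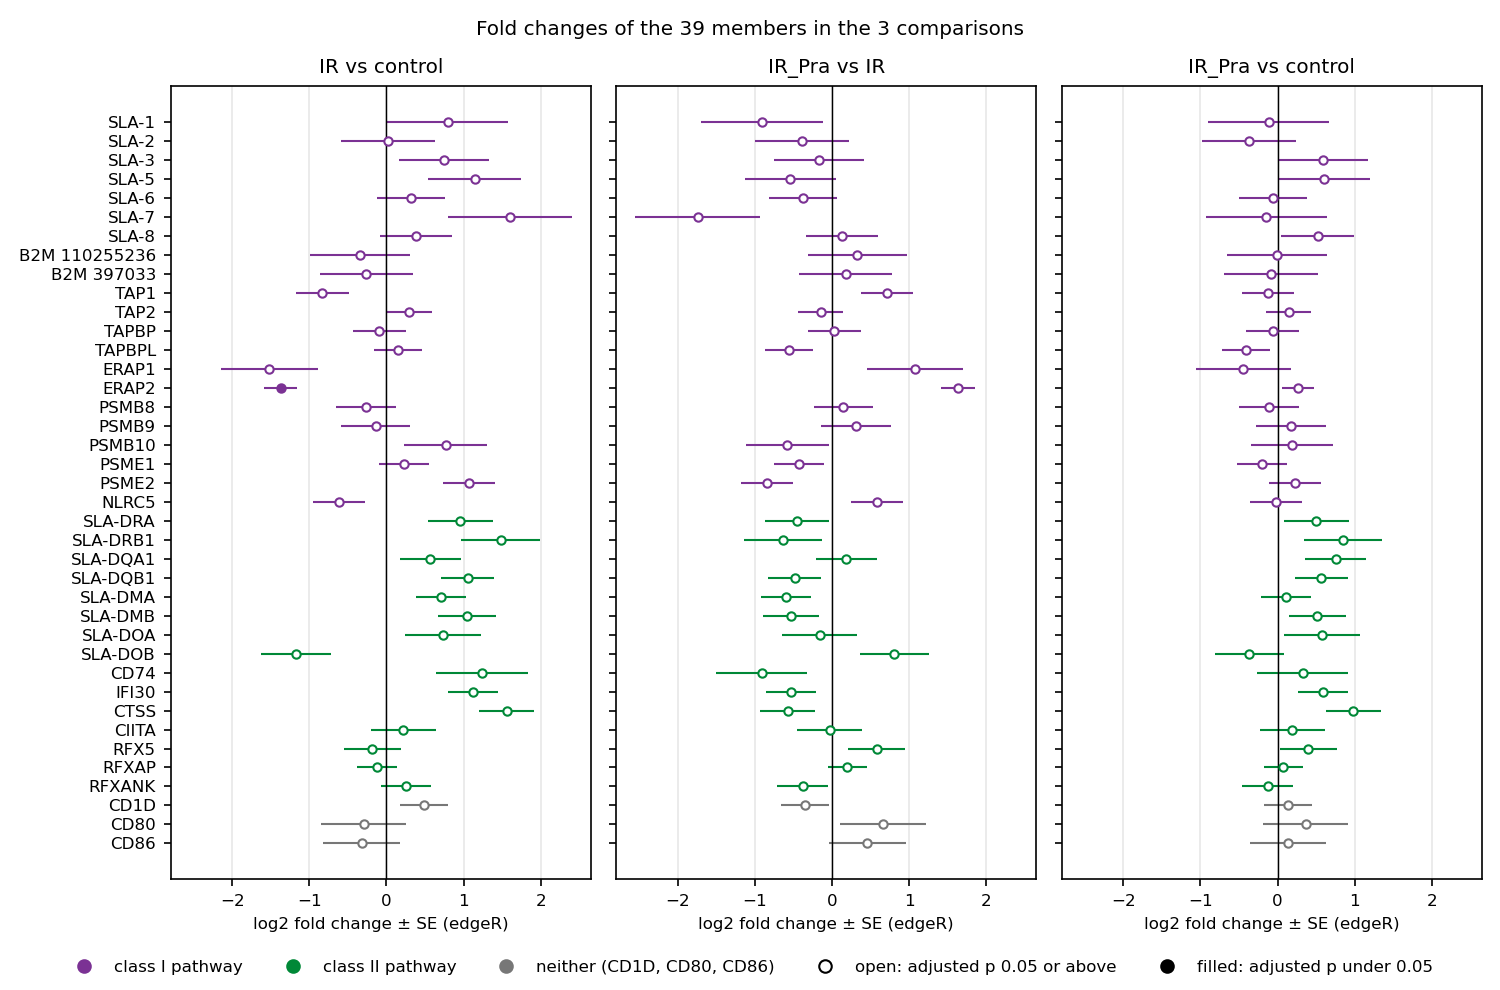
Log2 fold change with its standard error (edgeR) of the 39 members in the 3 comparisons, coloured by pathway; a filled point has an adjusted p under 0.05. ERAP2 in IR vs control, at -1.37 ± 0.21, is the filled point, and the class II chains, CD74, IFI30 and CTSS lie to the right of 0 there, with SLA-DOB to the left.

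Among the class I heavy chains, which bind the peptide and meet the T cell receptor, the 2 IR animals disagreed. SLA-1 (Entrez 100037293, chromosome 7, 22824137 to 22920154), a classical heavy chain, had 2145 and 1358 CPM in the controls, 5040 and 1028 in IR, and 1518 and 1713 in IR_Pra. IR 1 was the highest library and IR 2 the lowest, so the groups overlapped. The classical chain SLA-2 had 1175 and 1415 CPM in the controls, 1989 and 632 in IR, and 788 and 1211 in IR_Pra. SLA-3, the other classical chain, had 316 and 161 CPM in the controls, 579.7 and 222 in IR, and 262 and 453 in IR_Pra. In all 3 genes IR 1 was the highest of the 6 libraries.

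SLA-7 (Entrez 396650, chromosome 7, 23634731 to 23638722), a non-classical heavy chain, showed the widest gap between the IR animals of any member. It had 38.1 and 36.7 CPM in the controls, 197 and 29.3 in IR, and 26.8 and 40.8 in IR_Pra. IR 1 stood 6.72 times above IR 2 while the controls were nearly equal, and the difference of the group means (log2 fold change 1.60 ± 0.80, adjusted p = 0.239, edgeR) did not pass. Without IR 1 the sign turned (-0.35, adjusted p = 0.407), and without IR 2 the gene was called higher (2.40 ± 0.27, adjusted p = 0.0158). SLA-5 had 36.3 and 45.6 CPM in the controls, 139 and 41.8 in IR, and 43.1 and 81.6 in IR_Pra (log2 fold change in IR 1.14 ± 0.60, adjusted p = 0.255, edgeR). The non-classical chains SLA-6 and SLA-8 had 68.2 and 79.6 CPM in IR 1, against 39.2 and 49.5 in IR 2 and 36.2 to 56.7 over the controls. None of the 7 heavy chains had groups that did not overlap, in any comparison. Of all genes, 29.8% lay apart higher and 30% lower in IR against control. The shares were 27.3% and 26.6% in IR_Pra against IR, and 20.8% and 20% in IR_Pra against control.

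Counts of single heavy chain genes are uncertain, because reads could be divided between related genes and the models of some overlap. The overlaps involved SLA-1, SLA-2, SLA-3 and SLA-5, and none involved SLA-6, SLA-7 or SLA-8. How alike the sequences are was not measured. On RefSeq Sscrofa11.1, the model of SLA-1 covers all 2895 bases of SLA-5 and shares 3408 bases with SLA-2, and it also spans 2 class I rows that carry no SLA symbol, LOC100515902 and LOC100513601, the latter over 31539 bases. SLA-1 counts were 4.02 and 1.05 times those of LOC100513601 in the controls, 2.86 and 1.28 times in IR, and 1.37 and 0.748 times in IR_Pra. SLA-1 and LOC100513601 together held a steadier part of the counts of the 9 class I rows, between 58.5% and 67.6% over the 6 libraries (exact 95% intervals at most 0.410 points wide), while SLA-1 alone ranged from 27.4% to 50.05% (at most 0.417 points wide). Summed over the 9 rows, class I heavy chains had 4402 and 4527 CPM in the controls, 10070 and 3014 in IR, and 4014 and 6247 in IR_Pra. IR 1 was the highest and IR 2 the lowest library of this sum, which of the single rows held for SLA-1 and SLA-2. SLA-2 took 26.7% and 31.3% of the 9 rows in control and between 19.4% and 20.97% in the 4 irradiated libraries (at most 0.344 points wide).

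Beta-2-microglobulin is the small partner that every class I heavy chain needs to leave the endoplasmic reticulum. The pig genome has 2 B2M genes near each other on chromosome 1, and since reads could be divided between them the values of either are uncertain. The first (Entrez 110255236, 126837721 to 126844043) had 1207 CPM in both controls, 1498 and 408 in IR, and 954 and 1442 in IR_Pra. The second (Entrez 397033, 126865767 to 126878501) had 952 and 889 CPM in the controls, 1180 and 356 in IR, and 674 and 1060 in IR_Pra. In both rows the 2 IR animals lay on either side of the controls. Without IR 1 both were called lower in IR (log2 fold change -1.57, adjusted p = 0.0235, and -1.37, adjusted p = 0.0356, edgeR), and without IR 2 their sign turned.

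The gap between the 2 IR animals ran through the whole class I pathway. All 21 of its members were higher in IR 1 than in IR 2 in CPM, with ratios from 1.14 to 6.72 and a median of 1.96. The same held for 6 of the 15 class II members and for 42.3% of all genes tested. After a trend with transcript length was removed it held again for 21 of 21 class I members, for 4 of 15 class II members and for 51.3% of all genes. The median log2 ratio of the 9 heavy chain and B2M rows was 1.73, and 1.44 with the length trend removed. IR 1 lay above both controls in 16 of the 21 members, against 42.2% of all genes tested, and IR 2 lay below both in 14, against 43.2%. Epithelium markers stood in the same order in the IR libraries, with a median log2 ratio to the control mean of 0.08 in IR 1 and -2.15 in IR 2. So did lists described below: standard proteasome genes (0.61 and 0.02), endoplasmic reticulum chaperones (0.82 and 0.06) and T cell markers (-0.93 and -1.81). The other lists described below stood in the opposite order. The part of these genes and cell types in the class I gap was not tested. In bulk tissue, fewer cells of a type and less RNA per cell cannot be told apart.

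**Figure D3:**
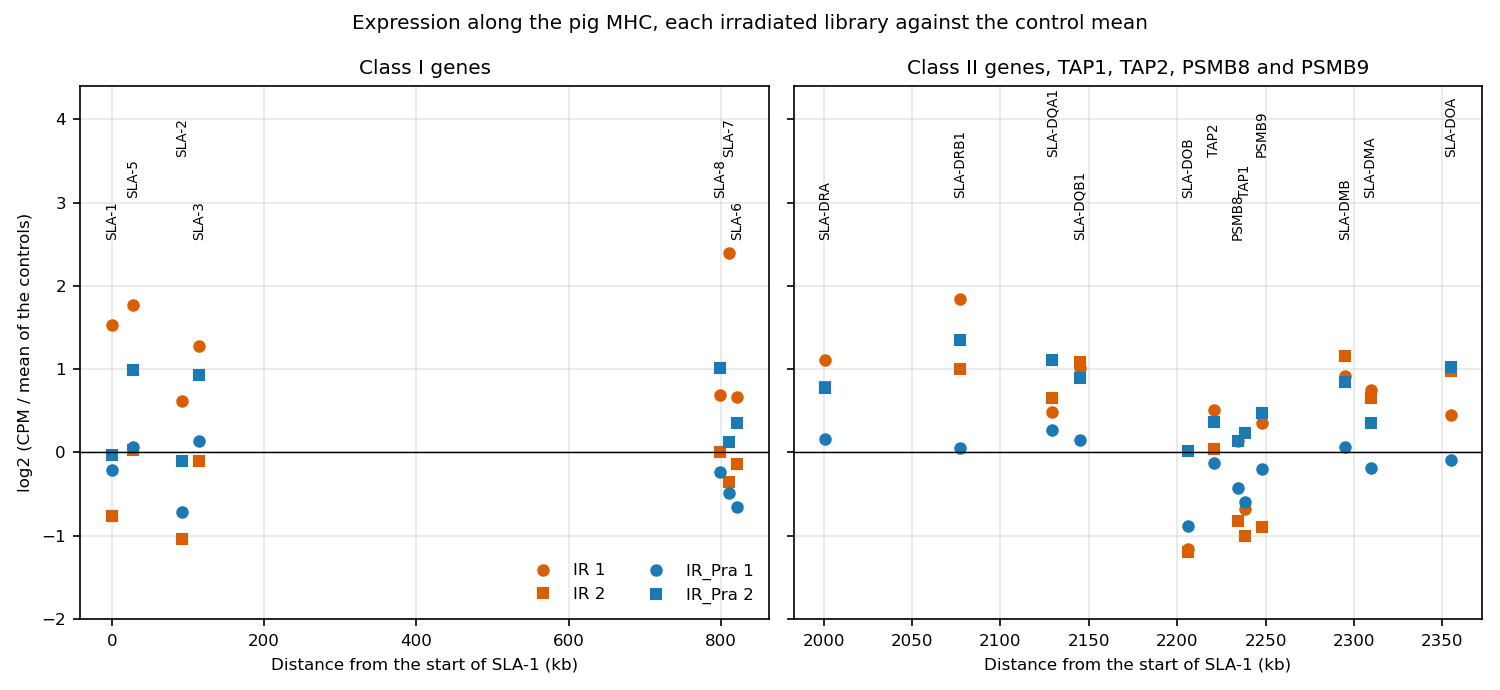
Log2 ratio of each irradiated library to the control mean against distance along the pig MHC on chromosome 7, from the start of SLA-1, with class I genes at the left and class II genes, TAP1, TAP2, PSMB8 and PSMB9 at the right. IR 1 lies above IR 2 at all 7 heavy chains, whereas the 2 IR libraries lie close together at SLA-DQB1, SLA-DMA, SLA-DMB and SLA-DOB.

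Of the peptide loading and trimming genes, the 2 aminopeptidases and TAP1 had both IR libraries below both controls, and of these ERAP2 passed the test. ERAP2 (Entrez 100525036, chromosome 2, 103510425 to 103563482) trims peptides to the length that class I grooves hold. It had 60.5 and 56.1 CPM in the controls, 24.1 and 21.05 in IR, and 69.0 and 71.1 in IR_Pra. Every IR value was less than any other library's, and within each group the animals lay close together. It fell in IR to 0.387 of the control level (log2 fold change -1.37 ± 0.21, adjusted p = 0.0370, edgeR). In IR_Pra it stood 3.10 times above IR (1.63 ± 0.21, adjusted p = 0.0754), which did not pass with edgeR and did with DESeq2 (adjusted p = 7.71e-08). Against control, IR_Pra was 1.2 times as high (0.26 ± 0.21, adjusted p = 0.9998).

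The ERAP2 call was near its threshold. It held in 11 of 20 ways of running the test, with adjusted p from 4.69e-06 to 0.243, and its log2 fold change stayed between -1.49 and -1.07 in all 20. Leaving out either control (adjusted p = 0.243 without control 1 and 0.183 without control 2) or either IR_Pra library (0.109 for each) ended the call, and leaving out IR 1 (0.00786) or IR 2 (0.0218) did not.

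ERAP1 (Entrez 100523953, chromosome 2, 103378428 to 103415066), the neighbouring aminopeptidase, had 156 and 144 CPM in the controls, 80.5 and 24.4 in IR, and 151 and 69.6 in IR_Pra. Both IR libraries lay below both controls, and the IR_Pra libraries lay on either side of IR 1. Of the alternatives run, it was called lower only when IR 1 was left out (log2 fold change -2.63, adjusted p = 0.0191, edgeR). TAP1 (Entrez 733649, chromosome 7, 25062772 to 25071989), a subunit of the peptide transporter, had 229.8 and 205 CPM in the controls, 136 and 108 in IR, and 144 and 256 in IR_Pra. The IR libraries were the lowest pair, at a log2 fold change of -0.83 ± 0.34 against control (adjusted p = 0.167, edgeR) and 0.71 ± 0.34 for IR_Pra against IR (adjusted p = 0.257).

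TAP2, the other transporter subunit, did not follow TAP1. It had 114 and 94.3 CPM in the controls, 148 and 107 in IR, and 95.2 and 135 in IR_Pra, with all groups overlapping. Tapasin (TAPBP), which bridges TAP and the heavy chain, had 299.5 and 209 CPM in the controls, 289 and 188 in IR, and 214 and 273 in IR_Pra. Its relative TAPBPL, a peptide editor, had 51.6 and 79.8 CPM in the controls, 84.0 and 61.4 in IR, and 43.4 and 55.3 in IR_Pra, so both IR_Pra libraries were below both IR libraries.

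The immunoproteasome swaps 3 catalytic subunits of the standard proteasome for PSMB8, PSMB9 and PSMB10, and the PSME1 and PSME2 subunits form the cap that opens it. PSME2 (Entrez 397522, chromosome 7, 75154570 to 75157871) had 101 and 75.4 CPM in the controls, 233 and 138 in IR, and 91.8 and 115 in IR_Pra. Both IR libraries were above the other 4, but the difference did not pass against control (log2 fold change 1.07 ± 0.34, adjusted p = 0.104, edgeR) or against IR_Pra (-0.84 ± 0.34 for IR_Pra relative to IR, adjusted p = 0.200). Without IR 2 it was called higher in IR than in control (1.40, adjusted p = 0.0267). PSME1, its partner in the same ring, had 179.7 and 216 CPM in the controls, 284 and 179 in IR, and 149 and 194 in IR_Pra, which overlapped.

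PSMB10 (Entrez 733626, chromosome 6, 28544910 to 28547609) had 84.4 and 62.7 CPM in the controls, 190.4 and 59.9 in IR, and 72.8 and 94.4 in IR_Pra. IR 1 alone was high, and the log2 fold change of 0.77 ± 0.54 (adjusted p = 0.378, edgeR) became -0.30 without it and 1.37 (adjusted p = 0.0299) without IR 2. PSMB8 had 172 and 153 CPM in the controls, 179.8 and 91.8 in IR, and 121 and 179.6 in IR_Pra. PSMB9 had 72.4 and 68.8 CPM in the controls, 90.3 and 37.8 in IR, and 61.3 and 97.8 in IR_Pra. For both, the IR animals lay on either side of the controls.

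NLRC5, the transactivator of class I genes, had 78.7 and 50.4 CPM in the controls, 47.9 and 36.6 in IR, and 50.7 and 76.3 in IR_Pra. The IR libraries were the lowest pair without passing (log2 fold change -0.61 ± 0.34, adjusted p = 0.277, edgeR, and 0.59 ± 0.34 for IR_Pra against IR, adjusted p = 0.334).

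In 11 of the 15 class II members both IR animals stood on the same side of the controls, 10 above and 1 below. The same held for 10883 of all 18197 genes tested, 29.8% above and 30% below. The DR and DQ molecules are the pig's classical class II molecules, each made of an alpha and a beta chain. SLA-DRA (Entrez 100135040, chromosome 7, 24825037 to 24830650), the DR alpha chain, had 926 and 677 CPM in the controls, 1734 and 1383 in IR, and 899.7 and 1374 in IR_Pra. SLA-DRB1 (Entrez 100153386, chromosome 7, 24901386 to 24914016), the DR beta chain, had 187 and 179 CPM in the controls, 658 and 366 in IR, and 190.2 and 466 in IR_Pra. Both IR libraries exceeded both controls for either chain, and IR_Pra 1 lay near the controls while IR_Pra 2 lay near IR 2 or above it. For SLA-DRB1 the log2 fold change in IR was 1.48 ± 0.51 (adjusted p = 0.122, edgeR), which did not pass.

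SLA-DQB1 (Entrez 100037921, chromosome 7, 24969034 to 24977238), the DQ beta chain, had 307 and 286 CPM in the controls, 601 and 629 in IR, and 329 and 551 in IR_Pra. It was about as even within the IR group as within control, at 2.07 times the control level (log2 fold change 1.05 ± 0.34, adjusted p = 0.110, edgeR). SLA-DQA1, the DQ alpha chain, had 589 and 481 CPM in the controls, 747 and 840.0 in IR, and 644 and 1159 in IR_Pra, the highest library being IR_Pra 2. A further row annotated as a DR beta chain, LOC100153139, carries no SLA symbol and could exchange reads with SLA-DRB1. It had 131 and 79.5 CPM in the controls, 399 and 215 in IR, and 94.6 and 122 in IR_Pra. Summed, the 2 DR beta rows had 318 and 259 CPM in the controls, 1057 and 580 in IR, and 285 and 589 in IR_Pra, so the IR libraries remained above both controls.

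The DM and DO molecules work inside endosomes, where DM swaps the invariant chain remnant for a peptide and DO restrains DM. SLA-DMA had 95.8 and 59.0 CPM in the controls, 131 and 122 in IR, and 68.2 and 99.0 in IR_Pra. SLA-DMB (Entrez 100135050, chromosome 7, 25119278 to 25125089) had 78.6 and 48.3 CPM in the controls, 120.3 and 141 in IR, and 66.7 and 114 in IR_Pra. For both DM chains the 2 IR libraries were the highest of all 6. None of the DM and DO chains passed in any comparison with edgeR.

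The DO chains diverged. SLA-DOA, the DO alpha chain, had 34.1 and 17.5 CPM in the controls, 35.4 and 50.7 in IR, and 24.3 and 52.8 in IR_Pra. SLA-DOB (Entrez 100135049, chromosome 7, 25030435 to 25038196), the DO beta chain, had 21.7 and 11.03 CPM in the controls, 7.32 and 7.17 in IR, and 8.84 and 16.5 in IR_Pra. SLA-DOB was thus the 1 class II member whose IR values were both below both controls, and the IR_Pra libraries both lay above IR (0.81 ± 0.45 for IR_Pra against IR, adjusted p = 0.319, edgeR). As background, DO beta is made mostly by B cells, and B cell markers were lower in the same libraries; their part in the SLA-DOB values was not tested.

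CD74 (Entrez 396660, chromosome 2, 151402210 to 151409924) had 2439 and 1304 CPM in the controls, 4588 and 4256 in IR, and 1710 and 2991 in IR_Pra. Both IR libraries were above the other 4, at 2.36 times the control mean. In FPKM, CD74 exceeded SLA-DRA 2.39 and 1.78 times in the controls, 2.46 and 3.05 times in IR, and 1.74 and 1.96 times in IR_Pra. The CD74 length behind these values ranged from 1314 nt in IR 2 to 1460 nt in IR_Pra 2. With DESeq2 CD74 was called higher in IR than in control (adjusted p = 0.0471), as were SLA-DRB1 (0.0409), SLA-DQB1 (0.0250), IFI30 (0.0224) and CTSS (0.00160), where DESeq2 called 12.3% of all genes higher.

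Of the lysosomal enzymes, CTSS is the cathepsin that cuts the invariant chain in antigen-presenting cells, and IFI30 reduces disulfide bonds so that antigens unfold. CTSS (Entrez 100153090, chromosome 4, 98415273 to 98442952) had 119 and 110.4 CPM in the controls, 235 and 440.2 in IR, and 204 and 249 in IR_Pra. All 4 irradiated libraries were above both controls. Its log2 fold change in IR was 1.56 ± 0.36 (adjusted p = 0.0594, edgeR), just outside the threshold, and in IR_Pra against control it was 0.98 ± 0.36 (adjusted p = 0.9998). It was called higher in IR in 4 of 20 ways of running the test, among them without IR 1 (adjusted p = 0.00436) and without IR 2 (0.0314), over a range of 0.00160 to 0.271. IFI30 (Entrez 100174943, chromosome 2, 59629762 to 59633714) had 112 and 67.7 CPM in the controls, 172 and 220.4 in IR, and 123 and 147 in IR_Pra. It was ordered IR, IR_Pra, control without overlap, with a log2 fold change of 1.13 ± 0.33 in IR (adjusted p = 0.0861) and -0.54 ± 0.32 for IR_Pra against IR (adjusted p = 0.351). It was called without IR 1 (1.29, adjusted p = 0.0362).

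The regulators of class II did not separate control from IR. CIITA, the master switch, had 59.2 and 29.3 CPM in the controls, 42.5 and 60.6 in IR, and 39.2 and 61.8 in IR_Pra. RFX5, RFXAP and RFXANK form the complex that binds class II promoters. RFX5 had 44.6 and 33.2 CPM in the controls, 23.5 and 45.0 in IR, and 45.7 and 56.7 in IR_Pra. RFXAP ranged from 11.2 to 15.3 CPM and RFXANK from 41.6 to 78.3 CPM over the 6 libraries. For all 4 genes the control and IR libraries overlapped, and their log2 fold changes lay between -0.18 and 0.25.

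CD1D, which presents lipids, had 30.8 and 18.4 CPM in the controls, 34.0 and 34.8 in IR, and 24.2 and 29.8 in IR_Pra (log2 fold change in IR 0.48 ± 0.31, adjusted p = 0.336, edgeR). The IR libraries were the 2 highest. CD80 and CD86 are the ligands by which antigen-presenting cells co-stimulate T cells through CD28. CD86 had 19.4 and 11.5 CPM in the controls, 7.39 and 17.3 in IR, and 13.6 and 20.3 in IR_Pra. CD80 had 5.68 and 3.03 CPM in the controls, 2.27 and 4.82 in IR, and 4.05 and 7.17 in IR_Pra. Neither ligand separated control from IR, and unlike the class I genes all 3 were lower in IR 1 than in IR 2.

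Ratios of paired genes within a library do not depend on how libraries are scaled to each other. The pairs were chosen after their values were seen, so the ratios are given with no test, and 2 animals against 2 could not reach a two-sided exact permutation p under 0.333 in any case. SLA-DMB stood 5.41 and 5.28 times above SLA-DOB in control (FPKM), 22.0 and 26.2 times in IR, and 10.2 and 9.61 times in IR_Pra. This ratio of the editor to its inhibitor put the 3 groups in separate ranges, with IR_Pra between the other two. The closeness of the control ratios depends on the SLA-DOB length behind the FPKM, 2156 nt in control 1 and 1747 nt in control 2. In counts, SLA-DMB and SLA-DOB had 4541 and 1252 in control 1, and 3041 and 695 in control 2. The corresponding alpha chain ratio, SLA-DMA over SLA-DOA, was 5.16 and 6.18 in the controls, 6.78 and 4.41 in IR, and 5.16 and 3.45 in IR_Pra, where control and IR overlapped.

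TAP1 over TAP2 was 2.29 and 2.46 in the controls, 0.900 and 1.16 in IR, and 1.71 and 2.16 in IR_Pra, in FPKM. The TAP1 length behind the FPKM was 2810 nt in IR 1 and 2439 to 2446 nt in the others, which lowers the IR 1 value. PSMB8 over PSMB5, the subunit it replaces, was 3.13 and 2.71 in the controls, 1.68 and 1.26 in IR, and 2.19 and 3.37 in IR_Pra. PSMB9 over PSMB6 was 0.808 and 0.768 in the controls, 0.439 and 0.298 in IR, and 0.682 and 1.15 in IR_Pra. In these 3 ratios IR was below the other groups in both animals, although PSMB8 and PSMB9 themselves overlapped between control and IR. A ratio also moves with its denominator. PSMB6 had 72.6 and 74.9 CPM in the controls, 170 and 109 in IR, and 72.4 and 78.2 in IR_Pra. In IR 1, where PSMB9 was above both controls, the lower PSMB9 ratio thus went with higher PSMB6. PSMB8 had 123 FPKM in IR 1 against 135 and 123 in the controls, so the lower PSMB8 ratio there went with higher PSMB5. The third swap, PSMB10 over PSMB7, was 0.922 and 0.714 in the controls, 1.203 and 0.652 in IR, and 0.938 and 0.941 in IR_Pra, with IR on either side of the rest.

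PSME2 over PSME1 was higher in IR, at 0.976 and 0.920 against 0.670 and 0.416 in control and 0.734 and 0.705 in IR_Pra. B2M, both rows summed, over the 9 class I heavy chain rows was 1.08 and 0.915 in the controls, 0.563 and 0.506 in IR, and 0.796 and 0.756 in IR_Pra. The 2 IR animals, which differed several fold in the level of class I genes, were close in this ratio, and IR_Pra lay between IR and control.

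**Figure D4:**
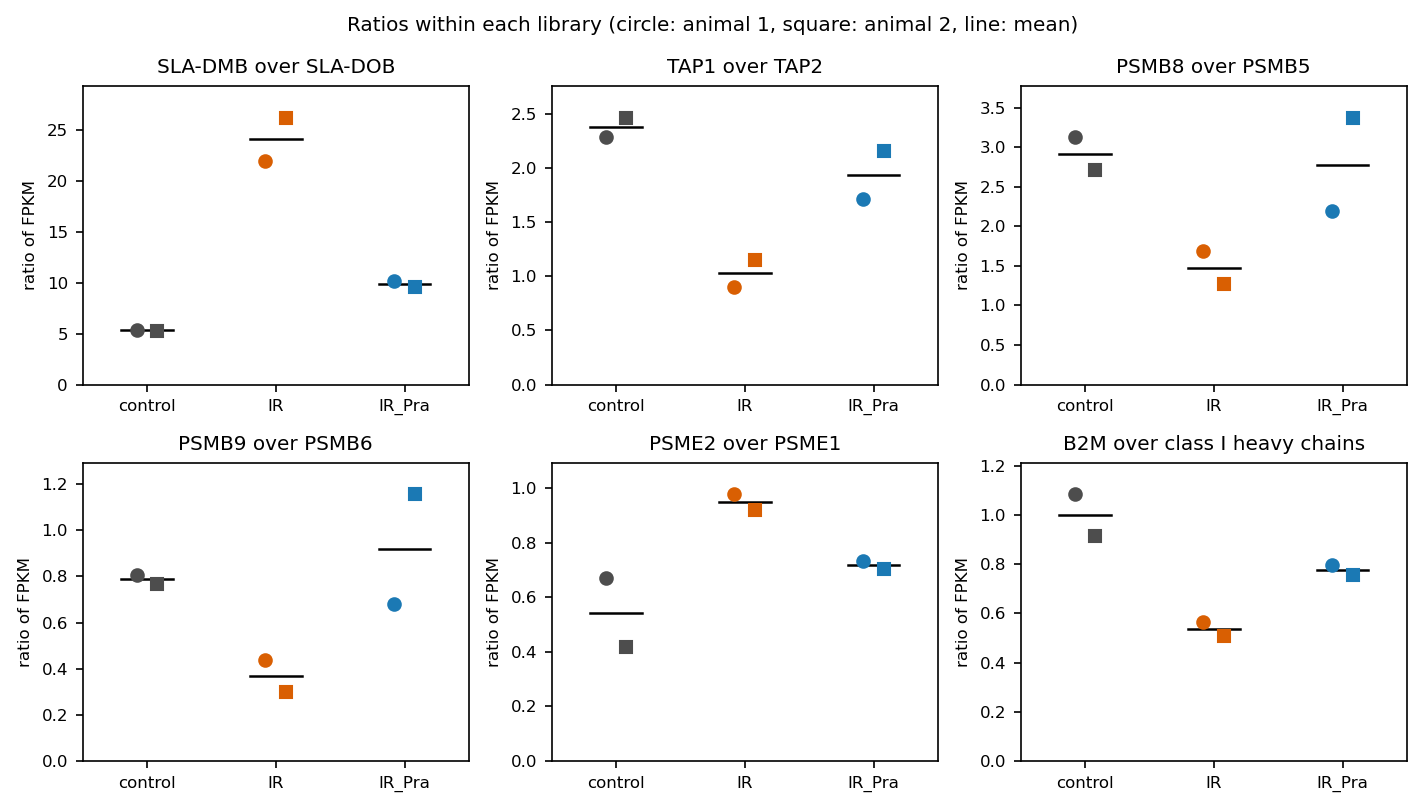
Ratio of the FPKM of 2 genes, or of B2M to class I heavy chains, in each library by group (circle animal 1, square animal 2, line mean, axes from 0). SLA-DMB over SLA-DOB reaches 22.0 and 26.2 in IR against 5.28 to 10.2 elsewhere, and TAP1 over TAP2 is 0.900 and 1.16 in IR against 1.71 to 2.46 elsewhere.

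Other genes that work with the members were read from lists, in IR against control, where 3.39% of all genes were called higher and 2.68% lower. Of 19 tested genes of the interferon gamma axis none was called higher and 1 lower, JAK2, a kinase of the interferon gamma receptor (36.0 and 31.4 CPM in the controls, 9.71 and 14.3 in IR, log2 fold change -1.49 ± 0.28, adjusted p = 0.0454, edgeR). At an unadjusted p under 0.05 there were 2 higher and 3 lower. DESeq2 called 1 higher and 3 lower, and limma voom 0 higher and 1 lower. The list's median was -0.37. That median was 0.16 without control 1 and -0.19 without IR 1. IFNG itself was too low to be tested, with no count in any control or IR library. Among 30 genes of the standard proteasome and its assembly none passed (median 0.37; 5 higher at an unadjusted p under 0.05, 2 by DESeq2 and none by limma voom). Without IR 1 that median was 0.01, and without IR 2 it was 0.61. Of 11 chaperones and translocon genes of the endoplasmic reticulum, which fold class I chains and many other proteins, none passed (median 0.59; 4 higher and 1 lower unadjusted, 2 higher and 1 lower by DESeq2, none by limma voom). Without IR 1 that median was 0.06, and without IR 2 it was 0.82. Over all 18197 genes tested, 2990 were higher and 2506 lower at an unadjusted p under 0.05, and DESeq2 called 12.3% higher and 10.4% lower.

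Of 16 tested endosome and lysosome genes, 4 were higher in IR and 1 lower, against 3.39% and 2.68% of all genes, with a median of 1.02. That median was 1.04 without IR 1 and 0.66 without IR 2. CTSL, a cathepsin that can also cut the invariant chain, rose from 4.52 and 4.24 CPM in control to 27.0 in both IR animals (log2 fold change 2.62 ± 0.29, adjusted p = 0.0359, edgeR) and had 11.7 and 16.7 CPM in IR_Pra. The asparagine-specific protease LGMN rose by 2.08 ± 0.36 (adjusted p = 0.0408), CTSB by 2.12 ± 0.39 (adjusted p = 0.0432), and CTSZ, the fourth, had a log2 fold change of 1.81. LAMP3, a marker of mature dendritic cells, fell by 3.45 on the log2 scale. Of 20 co-stimulation and checkpoint genes 1 was called, TNFRSF9, which fell by 4.11, and the median was -0.47; without IR 2 no gene of the list was called. All list calls of this comparison by edgeR were lost, as over all genes, when a control or IR_Pra library was left out. In IR_Pra against IR no gene of these 5 lists passed with edgeR or limma voom. At an unadjusted p under 0.05 there were 12 higher and 15 lower of 96, and DESeq2 called 9 higher and 9 lower. Over all genes the unadjusted share was 24.5%, and the DESeq2 shares were 7.32% higher and 8.53% lower.

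Class II genes are expressed by several cell types whose marker lists differed in direction, where 3.39% of all genes were called higher in IR and 2.68% lower. Of 15 tested B cell markers 7 were lower in IR than in control and none higher, with a median of -2.92, and their summed level was 974 and 557 CPM in the controls, 134 and 139 in IR, and 328 and 811 in IR_Pra. Of 18 macrophage markers 11 were higher and none lower, with a median of 2.53, and their summed level was 809 and 821 CPM in the controls, 3793 and 4299 in IR, and 1354 and 2014 in IR_Pra. Dendritic cell markers gave 1 call higher (BATF3) and 1 lower (LAMP3) of 17, with a summed level of 226 and 171 CPM in the controls, 181 and 270 in IR, and 195 and 236 in IR_Pra, and in every library CLEC9A, CLEC10A or both, defining markers of dendritic cell subsets, had no count. T cell markers gave 4 calls lower of 13. Endothelium markers gave 1 call higher of 12 and none lower, with a median of 0.73. Their summed level was 402 and 271 CPM in the controls, 561 and 645 in IR, and 391 and 362 in IR_Pra. Smooth muscle markers gave 1 call higher of 10 and none lower, with a median of 2.21. Their sums were 6336 and 12899 CPM in the controls, 33506 and 71416 in IR, and 21394 and 14556 in IR_Pra. No epithelium marker of 14 was called (median -0.55). Without IR 1 the medians were 2.94 for macrophage, -2.85 for B cell, 0.39 for dendritic cell, -1.88 for T cell and -2.16 for epithelium markers. Without IR 2 they were 2.23, -3.61, -0.31, -0.95 and 0.08, so the dendritic cell median turned from 0.18 with all libraries. These marker calls too were lost without any one control or IR_Pra library, with macrophage medians of 2.57 to 2.65 and B cell medians of -3.07 to -2.67 there. The part of these cell types in the class II values was not tested.

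**Figure D5:**
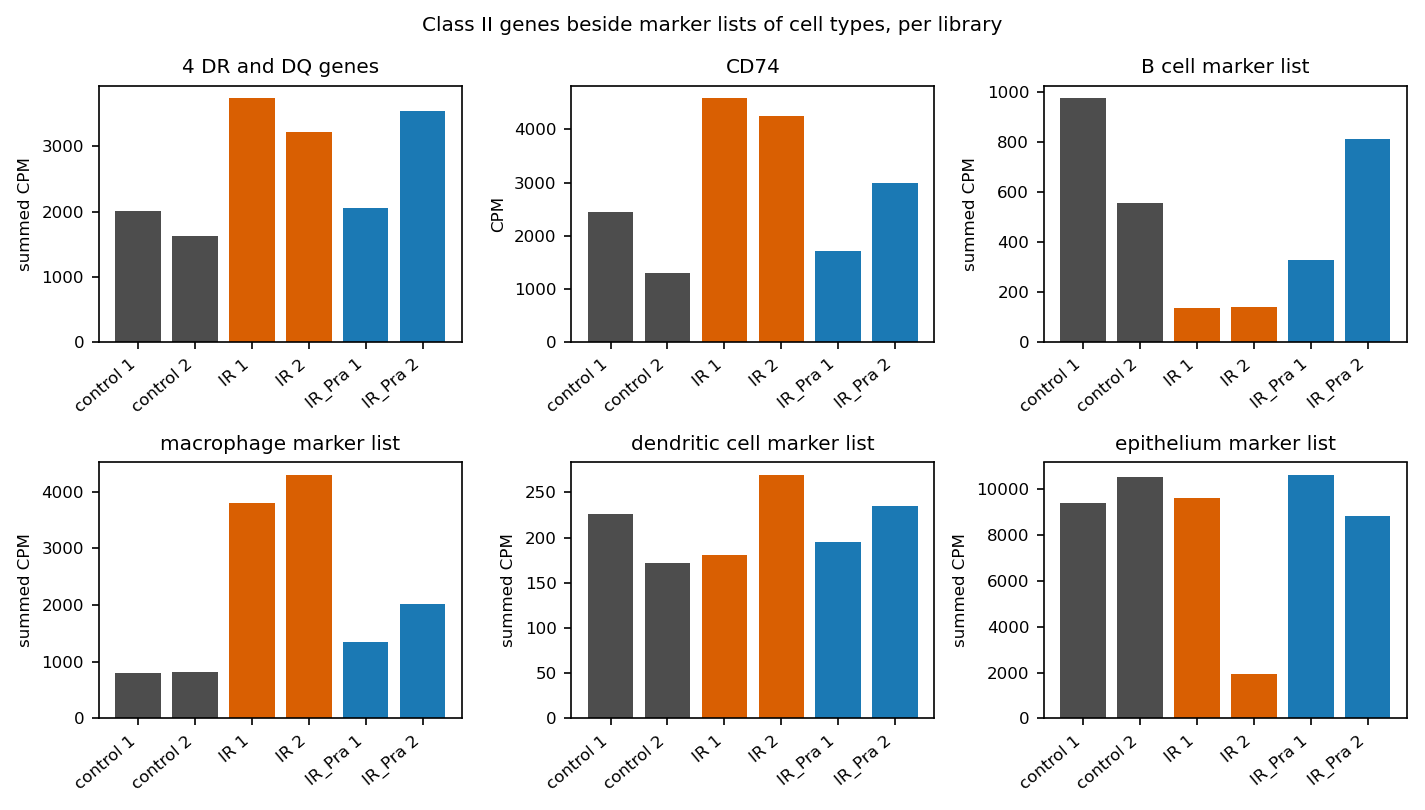
Summed CPM of the 4 DR and DQ genes, CPM of CD74 and summed CPM of 4 marker lists in each of the 6 libraries, with bars from 0. The DR and DQ sum and CD74 are higher in both IR libraries than in both controls, macrophage markers are higher too (3793 and 4299 against 809 and 821 CPM), B cell markers are lower (134 and 139 against 974 and 557 CPM), and epithelium markers are low in IR 2 alone (1948 CPM).

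The IR_Pra libraries differed from each other in class II as well. The summed level of the 4 DR and DQ genes was 2009 and 1624 CPM in the controls, 3740 and 3218 in IR, and 2063 and 3550 in IR_Pra. IR_Pra 1 was thus close to control 1, and IR_Pra 2 lay between the IR libraries. In IR_Pra 2, 13 of the 15 class II members and 14 of the 21 class I members were above both controls, against 34.7% of all genes tested, and in IR_Pra 1 there were 7 and 1, against 38.5%. Macrophage and B cell marker sums were also higher in IR_Pra 2 than in IR_Pra 1, and their part in this was not tested.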

How the data were processed

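The authors deposited 1 table for the series with a read count and an FPKM value per gene and library, per the file headers. It held no columns of other series (0), and 24 rows without a gene name, holding 0.00906% to 0.0385% of a library's counts, were left out. Per the submitters' processing notes, the tools were bcl2fastq 2.20.0, Trimmomatic, HISAT2 2.1.0 and StringTie 2.1.3b, and the builds Sscrofa11.1 and GRCh38. The role of the second build, how whole counts were made and whether strand was used are not given in the sources used here. All 30352 named rows matched a pig gene of RefSeq Sscrofa11.1 by Entrez ID, which gave the coordinates. No sequence was used here.

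Counts were tested with edgeR 4.0.16 (R 4.3.3, quasi-likelihood fit of edgeR version 4, TMM factors, filterByExpr by group, 18197 genes kept) in 1 fit of all 6 libraries with a term per group, 3 residual degrees of freedom and a common biological coefficient of variation of 0.431. Tests were two-sided with Benjamini-Hochberg adjustment over all genes of a comparison, at a threshold of 0.05. Standard errors come from the F statistic. CPM are counts scaled with the TMM factors. The deposited FPKM values were compared between genes and otherwise used only in limma alternatives on log2 values. The code was tested on simulated data. Members were given full statistics when past the threshold, or when among the 2 smallest p of their role in a comparison, and up to 4 genes of a list were named likewise. CTSZ, SLA-2 and the LOC rows were named outside this rule, and ERAP1, CD74 and both B2M rows were given values from alternative fits outside it. Members and lists were chosen with earlier results of these data known, and the marker and pathway lists are descriptions with no test of their own. The 6 animals are separate, so p-values rest on the spread between animals, pooled over the 3 groups and shared in part across genes. With 1 library per animal, that spread cannot be told apart from differences between the pieces of tissue sampled. Alternatives were DESeq2 1.42.0, limma 3.58.1 (voom, and trend on FPKM with pseudocounts of 1 and 0.1), other scalings and filters (none, or 5 CPM in 2 libraries), a replicate block, the 4 libraries of a comparison alone and leaving out each library.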

Additional observations from a re-analysis of the deposited data

How the results depend on the processing

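Each result was recomputed in 19 other ways. Removing a length trend, the same with a block, and the legacy edgeR fit were chosen after seeing the data. In IR against control 1103 genes passed, against 4131 with DESeq2, 475 with library size alone, 403 and 543 with limma on log2 FPKM with pseudocounts of 1 and 0.1, and 0 with the 4 libraries alone. The count ran from 0 to 5342 when 1 library was left out. In IR_Pra against IR 1 gene passed, against 2885 with DESeq2, 0 with limma voom, 2 with library size alone, 2 with no filter, 10 with limma on log2(FPKM + 0.1), 0 with the 4 libraries alone and 0 to 3728 without 1 library. DESeq2 called 72 genes in IR_Pra against control.

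The replicate numbers come from separate animals and did not pair them (r of same-numbered deviations 0.08, -0.11 and -0.09). With the replicate block 0 genes passed in IR against control and 0 in IR_Pra against IR, with or without the length trend removed, so 0 members were called lower.

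Members called higher in IR than control numbered 0, against 5 with DESeq2, 1 with the length trend removed and 0 to 6 without 1 library. Members called lower numbered 1, against 0 with log2(FPKM + 1), 0 with the 4 libraries alone, 0 with the length trend removed and 0 to 4 without 1 library. Without IR 1 those lower were both B2M rows, ERAP1 and ERAP2, with IFI30 and CTSS higher (28.3% of all genes were called). Without IR 2, SLA-1, SLA-5, SLA-7, PSMB10, PSME2 and CTSS were higher and ERAP2 lower (17.5% of all genes). In IR_Pra against IR the members called higher were 1 with DESeq2 and 0 to 3 without 1 library, and those called lower 0 to 4. Class II members with a positive log2 fold change in IR numbered 11 to 13 of 15 in every way run, and the class II median ran from 0.50 to 1.14 without 1 library. The class I median of IR against control ran from -0.44 to 0.50 without 1 library, and that of IR_Pra against IR from -0.70 to 0.65.

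Library size alone moved the log2 fold changes of all genes in IR_Pra against IR by a median of 0.15, and turned the sign of SLA-3, TAP2 and CIITA there. Signs also turned without 1 library, with ranges in IR against control of -0.35 to 2.40 for SLA-7, -0.30 to 1.37 for PSMB10, -0.23 to 0.61 for RFXANK and -1.06 to 0.16 for CD86. In IR_Pra against IR they were -1.64 to 0.65 for SLA-1 and -2.54 to 0.21 for SLA-7. In IR_Pra against control they were -0.24 to 0.997 for SLA-8, -0.22 to 0.76 for CIITA, -0.18 to 0.53 for CD1D and -0.10 to 0.86 for CD80. RFXANK was -0.12 with the length trend removed and -0.13 with the block as well. The causes were not tested. With 2 animals per group, a difference that missed the threshold is not shown to be absent.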

Other observations

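The counts divided by the deposited FPKM values and the library total give the transcript length the authors' processing used in each library. For most members this implied length was the same in all libraries within a few percent, but it was not for SLA-3, at 2942 nt in control 2 and 1984 to 2136 nt in the other 5 libraries, or for RFX5, at 4475 and 4751 nt in IR and 5528 to 5902 nt in the other 4. SLA-DOB ranged from 1747 to 2156 nt, CD86 from 2665 to 3323 nt and SLA-1 from 1491 to 1806 nt. TAP1 was at 2810 nt in IR 1 and 2439 to 2446 nt in the other 5 libraries. PSMB9 ranged from 945 to 1083 nt, CIITA from 8632 to 9939 nt and CD74 from 1314 to 1460 nt. ERAP2 ranged from 5722 to 6231 nt and CD80 from 4551 to 4923 nt. FPKM and count comparisons of these genes can therefore differ. SLA-3 had 148 and 55.6 FPKM in control, a ratio further from 1 than that of its 316 and 161 CPM.

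Of the 2 class I rows without an SLA symbol, LOC100515902 had 65.0 and 126 CPM in the controls, 212 and 166 in IR, and 202 and 304 in IR_Pra, so that all 4 irradiated libraries lay above both controls. It did not pass in IR (log2 fold change 0.98 ± 0.40, adjusted p = 0.169, edgeR) or in IR_Pra against control (1.40 ± 0.41, adjusted p = 0.9998). LOC100513601 had 534 and 1292 CPM in the controls, 1765 and 805 in IR, and 1104 and 2289 in IR_Pra.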
